A study of Mus musculus with 12 samples.

Results

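The miR-200 family of epithelial miRNAs and 4 miRNAs known from pancreas, intestine and kidney were examined in blood extracellular vesicles (bEVs) of Rag1-/- mice. The 9 miRNAs were taken by name from the deposited count table, which holds 1995 features, 1885 of them miRNAs and 110 piRNAs, a class of small RNAs best known from the germ line. They are mmu-miR-200a-3p, mmu-miR-200b-3p, mmu-miR-200c-3p, mmu-miR-141-3p and mmu-miR-429-3p of the miR-200 family, together with mmu-miR-375-3p, mmu-miR-215-5p, mmu-miR-216a-5p and mmu-miR-217-5p. All 9 were present in the table and passed the filter on low counts.

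Sera came from male Rag1-/- mice on the C57BL/6 background, which lack their own mature T and B cells. In the T cell group, 6 mice received T cells isolated from the spleens of WT mice, by intravenous injection at 6 weeks of age. In the medium group, 6 Rag1-/- mice received medium in place of cells. The innate immune cells of the host remain in both groups. Sera were collected at 10 weeks of age, bEVs were enriched by differential ultracentrifugation, and 1 small RNA library was made from each mouse. The comparison asks which bEV miRNAs differ when an otherwise T cell-deficient mouse carries WT T cells.

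The miR-200 family represses Zeb1 and Zeb2, transcription factors that silence E-cadherin, and so helps to keep epithelial cells epithelial. miR-375-3p is enriched in pancreatic islets, where it restrains insulin secretion. miR-216a-5p and miR-217-5p are enriched in pancreatic acinar cells, and their release into blood is used as a sign of pancreatic injury in rodents. miR-215-5p belongs to intestinal and renal epithelium and acts together with its relatives miR-192-5p and miR-194-5p. None of these miRNAs is characteristic of T cells.

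The mature sequences show which of the 9 miRNAs are near copies of each other. RefSeq sequences (GRCm38.p6) were matched for 8 of the 9, all but miR-375-3p, and are written from 5′ to 3′ with the seed, bases 2 to 8, in capitals. miR-200b-3p, miR-200c-3p and miR-429-3p share 1 seed, and miR-200a-3p and miR-141-3p share another.
miR-200b-3p: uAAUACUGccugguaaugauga
miR-200c-3p: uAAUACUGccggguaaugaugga
miR-429-3p: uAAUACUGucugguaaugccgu
miR-200a-3p: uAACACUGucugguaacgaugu
miR-141-3p: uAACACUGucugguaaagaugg

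With positions counted from 1 at the 5′ end, the seeds of both groups differ by C4U from miR-200a-3p to miR-200b-3p. miR-200a-3p and miR-141-3p differ by C17A and U22G, and miR-200b-3p and miR-200c-3p by U11G and A22G apart from 1 extra base at the end of miR-200c-3p. Among the table's features with a RefSeq sequence, no others carried either seed. Reads of such close copies could be divided between them by the authors' alignment, and levels of these pairs carry that uncertainty.

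The sequences of the miRNAs from intestine and pancreas are given for the same comparison. miR-192-5p, which was not among the 9, is shown because it shares its seed with miR-215-5p.
miR-215-5p: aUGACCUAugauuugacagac
miR-192-5p: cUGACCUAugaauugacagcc
miR-216a-5p: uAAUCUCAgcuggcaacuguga
miR-217-5p: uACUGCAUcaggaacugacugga

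miR-215-5p and miR-192-5p differ by A1C, U12A and A20C. No other feature with a RefSeq sequence carried the seed of miR-216a-5p or that of miR-217-5p.

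The 9 hairpins lie at 5 places in the genome (GRCm38.p6). Mir200b, Mir200a and Mir429 lie within 1846 bases on the minus strand of chromosome 4, from 156053905 to 156055750, inside an intron of Ttll10, with Mir429 also in an exon, and the other two in introns, of the noncoding transcript Gm13648. Mir200c and Mir141 lie within 477 bases on the minus strand of chromosome 6, from 124717914 to 124718390, in an intron of the noncoding gene Gm15884, with Mir141 also in an exon of Gm29008. Mir216a and Mir217 lie within 6824 bases on the plus strand of chromosome 11, from 28757012 to 28763835, in an intron of the lincRNA Gm12082. Mir215 lies on chromosome 1 from 185313581 to 185313692, in an exon of the noncoding gene 2010103J01Rik and opposite an intron of Iars2, and Mir375 lies elsewhere on chromosome 1, from 74900658 to 74900721, outside the other annotated genes.

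Total counts ranged from 48997 to 130106 per library, and the median feature had 15 to 30 counts. Levels are given as CPM, the count relative to the library's total after TMM scaling, which equalizes the bulk of the features between libraries. 1 count was worth 8.43 to 16.9 CPM. No feature has a count between 1 and 9 in T cell replicate 2 or in medium replicate 3. Of 7 miRNAs of blood cells none was at 0 in any library. Their summed level ranged from 25108 to 203462 CPM with T cells and from 22401 to 80643 CPM with medium, at medians of 79666 and 32032 CPM. The largest part of this sum was miR-486b-5p, at a mean of 34773 CPM over 12 libraries and 124205 CPM in T cell replicate 2. Of these 7 miRNAs, 6 had a positive log2 fold change (median 0.81) with TMM and 4 with total counts (median 0.46). Of all 1720 tested features, 778 and 332 were positive. DESeq2 called 1 of the 7, miR-223-3p of myeloid cells (adjusted p = 0.0448), where it called 7.84% of all features (44 of 561). The part of blood cells in the values described here was not tested.

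The 9 miRNAs were minor components of the bEV small RNA. Their summed level ranged from 2887 to 4398 CPM with T cells and from 3165 to 4373 CPM with medium after TMM scaling. As a share of all counts, the 9 made up 0.274% to 0.410% with T cells and 0.343% to 0.553% with medium, and 3 of 6 medium libraries lay above each T cell library on this scale. Most features were lower with T cells on that scale. The median log2 fold change, T cells over medium, was −0.38 over all 1720 tested features and −0.24 over the 9. In order of the mean level over 12 libraries, miR-217-5p came first at 1009 ± 454 CPM (SD, n = 12), followed by miR-375-3p at 569 ± 137 CPM, miR-200b-3p at 552 ± 178 CPM and miR-216a-5p at 473 ± 124 CPM. The other 5 lay between 224 and 292 CPM, from miR-200c-3p through miR-200a-3p, miR-429-3p and miR-215-5p to miR-141-3p. The count of miR-217-5p was above that of miR-375-3p in 11 of 12 libraries, and that of miR-216a-5p above that of miR-200c-3p in 11 of 12. The other neighbours in this order did not separate beyond their spread: miR-375-3p was above miR-200b-3p in 6 of 12 libraries, and miR-200a-3p above miR-429-3p in 5 of 12. miRNAs are of nearly equal length, 21 to 23 bases for the 8 with a sequence, so the counts were compared between miRNAs directly, although the efficiency of adapter ligation differs between sequences and was not measured.

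**Figure D1:**
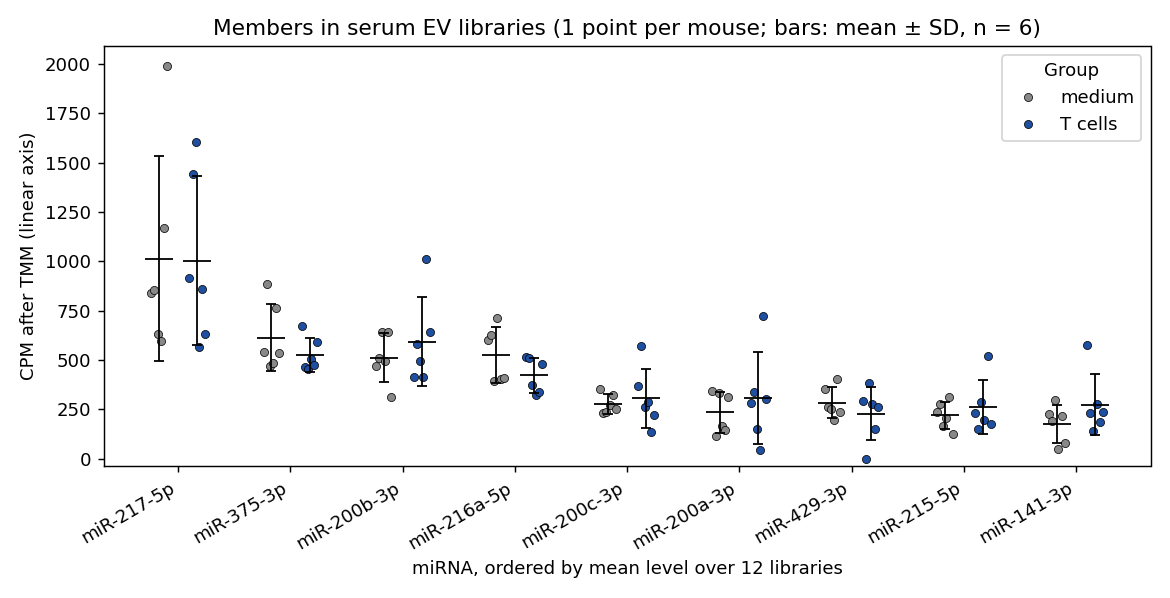
Level of each of the 9 miRNAs in CPM after TMM scaling (linear axis), 1 point per mouse, with medium in grey, T cells in blue and bars for the mean ± SD (n = 6 each). miR-217-5p is highest, between 567 and 1992 CPM, and the points of the 2 groups overlap for each miRNA.

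Within each library, the 9 miRNAs fell into an upper set and a set close to the middle of all features. miR-217-5p, miR-375-3p, miR-200b-3p and miR-216a-5p had more counts than the library's median feature in 12 of 12 libraries, with median percentiles of 92.5, 81.7, 80.8 and 75.9 among the 1995 features. miR-200a-3p and miR-200c-3p exceeded the median feature in 7 of 12 libraries each, miR-429-3p in 6, and miR-141-3p and miR-215-5p in 4 each. Their median percentiles lay between 42.8 and 56.6. These 5 miRNAs were thus counted about as often as a typical feature of the table.

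**Figure D2:**
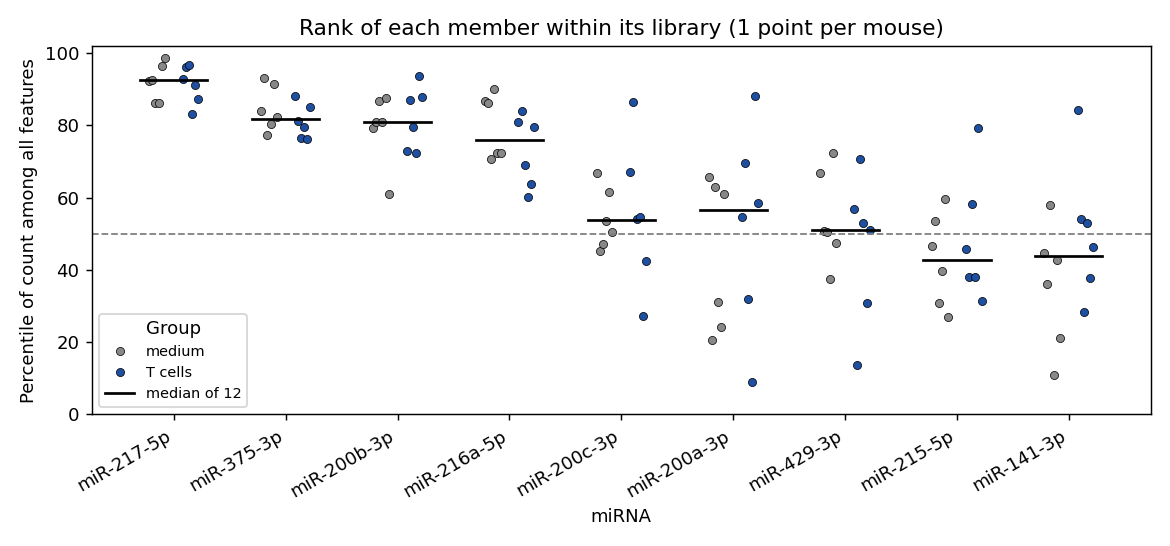
Percentile of each miRNA's count among the 1995 features of its own library, 1 point per mouse, with the median of 12 libraries as a black line and the 50th percentile dashed. The 4 miRNAs on the left lie above the dashed line in each library, and the 5 on the right scatter around it.

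None of the 9 miRNAs passed the test between the groups. edgeR called 0 of the 9 at an adjusted p under 0.05, where 0% of the 1720 tested features were called, and their adjusted p lay between 0.990 and 0.997. At an unadjusted p under 0.05 edgeR with TMM scaling had 0 of the 9, against 6.98% of all tested features (120 of 1720). Other scalings put miR-216a-5p and miR-375-3p under this limit, as given below. DESeq2, the tool of the study's methods, gave an adjusted p to 4 of the 9 (miR-200b-3p, miR-375-3p, miR-216a-5p and miR-217-5p, adjusted p from 0.543 to 0.973) and called 0 of them, where it called 7.84% of features (44 of 561). limma voom called 0 of all features, with 119 at an unadjusted p under 0.05. With such small shares over all features, 9 miRNAs could show little. The median log2 fold change of the 9, T cells over medium, was 0.15, beside −0.05 over all tested features, with 5 positive and 4 negative values. In each of the 9 the values of the groups overlapped. How many of all tested features overlap in this way was not counted, so the overlap is a description only. In serum bEVs a change in the number of vesicles from a tissue cannot be told apart from a change in the miRNA per vesicle.

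Of the chromosome 4 cluster, miR-200b-3p was the most abundant. With T cells its level was 412 CPM in the lowest library, 538 CPM at the median and 1011 CPM in the highest, T cell replicate 5. With medium the corresponding values were 314, 500.0 and 644 CPM. 1 T cell library lay above the medium range and none below it, and the log2 fold change was 0.20 (standard error 0.26, edgeR, adjusted p = 0.990, n = 6 each).

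miR-200a-3p, its neighbour with the other seed, varied most of the 9 with T cells. It ranged from 41.2 CPM (4 counts, T cell replicate 4) through a median of 292 CPM to 725 CPM (43 counts, T cell replicate 5) in the T cell group. With medium it ranged from 116 CPM through 240.4 CPM to 342 CPM. The T cell libraries thus reached beyond the medium range on both sides, and the log2 fold change was 0.35 (standard error 0.48). Without T cell replicate 5, the log2 fold change was −0.08 for miR-200a-3p and −0.01 for miR-200b-3p.

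miR-429-3p, the third of this cluster, was listed at 0 in T cell replicate 2. A count of 0 allows up to 3 counts, or 34.9 CPM, for counting error, and the smallest count above 0 in that library is 10, or 116 CPM, so a value below that cannot be told from 0 there. The other T cell libraries held 152 to 384 CPM, and the medium libraries 195 to 405 CPM with a median of 257 CPM. The log2 fold change was −0.31 (standard error 0.50) with all libraries and −0.05 without T cell replicate 2.

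Of the chromosome 6 cluster, miR-200c-3p had T cell values of 135 CPM at the lowest, 275 CPM at the median and 569.7 CPM at the highest, T cell replicate 2. The medium libraries were closer together, from 232 CPM through 260.1 CPM to 351 CPM. 2 T cell libraries lay above the medium range and 2 below it. The log2 fold change was 0.15 (standard error 0.32), and −0.12 without T cell replicate 2.

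miR-141-3p, which shares its seed with miR-200a-3p, had the largest fold change of the 9. It was at 137 CPM in the lowest T cell library, 234 CPM at the median and 573 CPM in the highest, T cell replicate 1. With medium it was at 46.4, 202 and 295 CPM, the lowest value resting on 5 counts. 1 of 6 T cell libraries lay above the medium range. The log2 fold change was 0.64 (standard error 0.45, 95% confidence interval −0.31 to 1.58, edgeR, unadjusted p = 0.175, adjusted p = 0.990), and 0.29 without T cell replicate 1.

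miR-375-3p, of pancreatic islets, was the most even of the 9 across libraries, with a coefficient of variation of 24.0% over all 12, where counting alone gives 14.1%. It was at 453, 489 and 671 CPM with T cells and at 469, 537 and 885 CPM with medium (lowest, median and highest). 0 T cell libraries lay above the medium range and 2 below it. The log2 fold change was −0.21 (standard error 0.23), with a 95% confidence interval from −0.69 to 0.28.

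miR-215-5p, of intestinal and renal epithelium, was counted 8 to 31 times per library. It was at 151, 214 and 522 CPM with T cells and at 125, 219 and 309.8 CPM with medium (lowest, median and highest). The highest value again came from T cell replicate 5, and without that library the log2 fold change of 0.23 (standard error 0.36) became −0.07.

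miR-216a-5p and miR-217-5p, of acinar cells, are made from neighbouring hairpins. miR-216a-5p was at 319.7, 426 and 512 CPM with T cells and at 391, 506 and 715 CPM with medium. 3 of 6 T cell libraries lay below the lowest medium library and none above the highest. Its log2 fold change was −0.31 (standard error 0.24, 95% confidence interval −0.82 to 0.20, edgeR, unadjusted p = 0.219, adjusted p = 0.990).

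miR-217-5p was at 567, 887 and 1606 CPM with T cells and at 594, 847 and 1992 CPM with medium. The group means were 1004 ± 427 and 1014 ± 521 CPM (SD, n = 6 in either group), and the log2 fold change was −0.01 (standard error 0.33). Its highest value, 1992 CPM, came from medium replicate 6, the library with the fewest counts. Without that library the log2 fold change was 0.30.

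The intervals show how large a difference could have been missed with TMM scaling. The 95% confidence intervals of the fold change reached from 0.618 to 1.21 for miR-375-3p and from 0.565 to 1.15 for miR-216a-5p. For miR-141-3p the interval reached from 0.806 to 3.00 and for miR-429-3p from 0.393 to 1.66. The upper bound exceeded 2 for miR-141-3p and for miR-200a-3p (2.54), and lay between 1.15 and 1.99 for the other 7. The lower bound was under 0.5 for miR-429-3p alone. These bounds hold for TMM scaling only, and no intervals were computed with other scalings. With libraries scaled to abundant miRNAs, the log2 fold change was −0.78 (standard error 0.29) for miR-216a-5p and −0.72 (0.32) for miR-375-3p. For miR-217-5p it was −0.69 (0.38). Larger decreases of these miRNAs could thus have been missed on that scale.

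The direction of the fold changes depended on how libraries were scaled to each other. With libraries scaled to their total counts the median log2 fold change of all 1720 features was −0.38, and with libraries scaled to abundant miRNAs (mean count of 100 or more) it was −0.55. Under both settings 8 of the 9 miRNAs had a negative value, miR-141-3p being the exception at 0.33 and 0.18, and limma voom gave 6 of 9 a negative value. Of all 1720 tested features, 1388 were negative with total counts, 1518 with abundant miRNAs and 883 with limma voom. Relative to the median of all features, the median of the 9 differed by 0.20 with TMM, 0.14 with total counts and 0.16 with abundant miRNAs. The sign of this difference was not stable. It was −0.12 with limma voom and −0.08 without both T cell replicate 2 and medium replicate 3. Without T cell replicate 2 alone it was −0.04, and without T cell replicate 5 −0.02. With at least 50 counts in 6 libraries it was −0.11, over the 3 miRNAs that could be fitted. With total counts and with abundant miRNAs, miR-216a-5p had log2 fold changes of −0.64 and −0.78 (edgeR, unadjusted p = 0.0302 and 0.0150, adjusted p = 0.474 and 0.261). Of all 1720 tested features, 177 and 313 had an unadjusted p under 0.05 with these scalings, beside 120 with TMM. Relative to all features the fold changes of miR-216a-5p were −0.25 and −0.23. miR-375-3p had −0.54 and −0.72 (edgeR, unadjusted p = 0.0723 and 0.0322, adjusted p = 0.484 and 0.261), and −0.16 and −0.17 relative to all features.

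**Figure D3:**
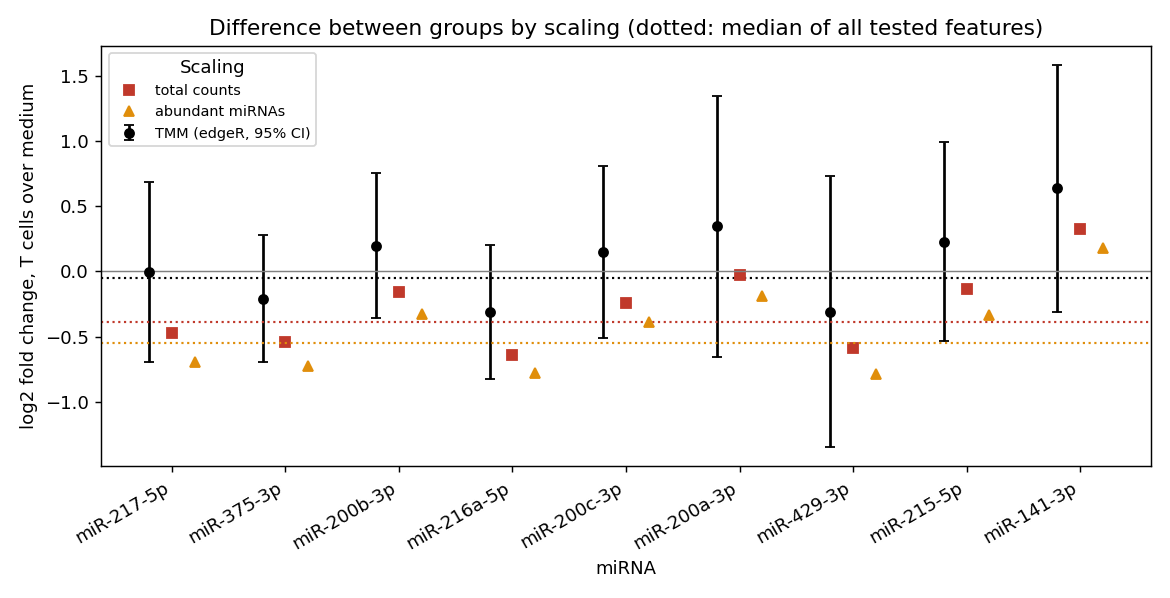
Fold change on a log2 scale, T cells over medium, for each miRNA, with TMM scaling and its 95% confidence interval in black, total counts in red and scaling to abundant miRNAs in orange. The dotted lines mark the median of all 1720 tested features in each scaling, at −0.05, −0.38 and −0.55, and each black interval includes 0.

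Both arms of each hairpin were in the table, which allows the guide strand to be compared with its partner. In epithelial cells and pancreas the 3p arm of the miR-200 hairpins and of Mir375, and the 5p arm of Mir215, Mir216a and Mir217, is the one known as the functional strand. In the bEVs this arm had the higher count in 12 of 12 libraries for miR-217-5p (1011 counts summed over the libraries against 126), miR-200b-3p (584 against 113), miR-216a-5p (513 against 103) and miR-375-3p (600.0 against 284). miR-215-5p was above miR-215-3p in 9 of 12 libraries.

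For the other miR-200 hairpins the partner strand had more counts. miR-429-5p was above miR-429-3p in 12 of 12 libraries, with 764 counts against 275. miR-141-3p was the higher arm in 2 of 12 libraries (243 counts against 526 of miR-141-5p), miR-200a-3p in 2 of 12 with 1 tie (280.0 against 402) and miR-200c-3p in 3 of 12 (314 against 365). T cell replicate 2 went the other way for Mir141 and Mir200c, where it listed the 5p arms at 0. The 5p arms with the largest excess are shown with their seeds in capitals, which differ from those of the 3p arms.
miR-429-5p: gUCUUACCagacaugguuaga
miR-141-5p: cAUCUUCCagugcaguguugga

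The median size of the arm difference was 1.11 on the log2 scale over the 9 hairpins, close to the 0.98 over all 720 hairpins with both arms in the table. Over the 28 hairpins with a mean of 200 or more counts for both arms together, a limit chosen after the values were seen, it was 3.59. On this measure, which ignores which arm was higher, the 9 hairpins stood closer to the typical hairpin of the table than to the strongly counted ones. The 9 hairpins all lay below that limit, so the comparison cannot separate the arm difference from the low counts.

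**Figure D4:**
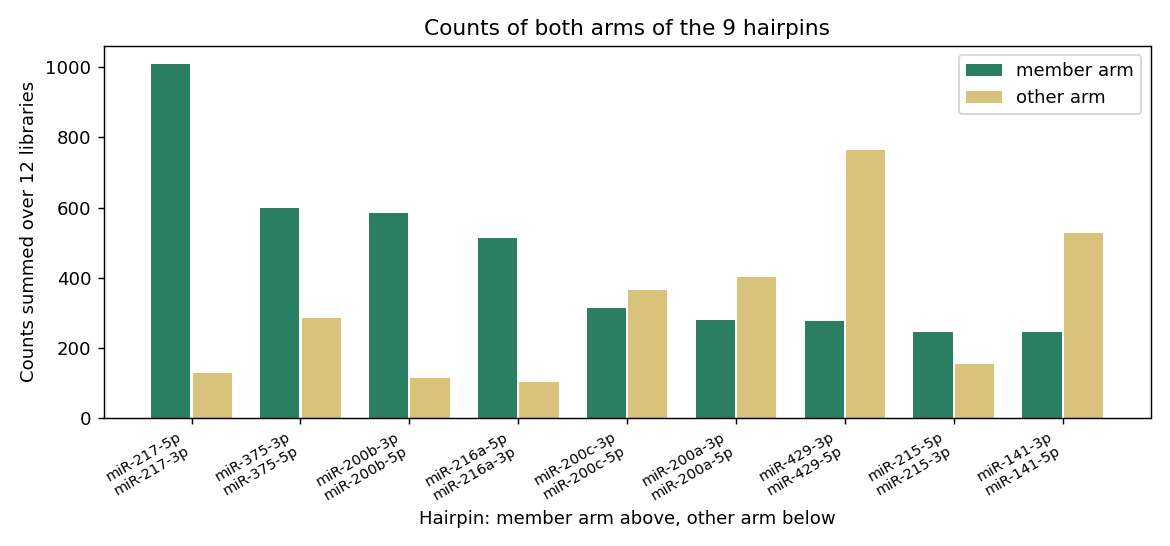
Counts summed over the 12 libraries for the arm studied here (green) and the other arm (yellow) of each hairpin. The green bar is the taller for miR-217-5p (1011 against 126), miR-375-3p, miR-200b-3p, miR-216a-5p and miR-215-5p, and the yellow bar for the Mir429, Mir141, Mir200a and Mir200c hairpins.

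Of the 9 other arms, 3 had a positive and 6 a negative log2 fold change, with a median of −0.12, beside −0.05 over all features. With total counts and with abundant miRNAs 9 of the 9 were negative, and with limma voom 4 of 9. Of all 1720 tested features, 1388, 1518 and 883 were negative in the same order. edgeR with TMM scaling called 0 of them, with 0 at an unadjusted p under 0.05, and DESeq2 0 of the 3 it adjusted. The shares over all features were 0%, 6.98% and 7.84%, so these few arms could show little. miR-429-5p, the most abundant, averaged 787 ± 225 CPM in T cell libraries and 612 ± 264 CPM in medium libraries (SD, n = 6 in either group). The log2 fold change was 0.36 (standard error 0.29), and it was negative with total counts and with abundant miRNAs.

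Neighbours at the same loci and relatives by seed were read in the same fit. miR-192-5p, made from chromosome 19 and sharing its seed with miR-215-5p, had a higher count than miR-215-5p in 12 of 12 libraries. It averaged 779 ± 484 CPM in T cell libraries and 734 ± 145 CPM in medium libraries (SD, n = 6 in either group). The log2 fold change was 0.09 (standard error 0.33), and −0.27 with total counts.

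miR-194-5p is processed from 1 hairpin beside Mir215 on chromosome 1 and from another beside Mir192 on chromosome 19. It was at 329, 503 and 1237 CPM with T cells and at 267, 383 and 460.2 CPM with medium, in the order lowest, median and highest. The T cell libraries above the medium range were replicates 4, 5 and 6, and the groups overlapped. Its log2 fold change was 0.82 (standard error 0.32, edgeR, unadjusted p = 0.0206, adjusted p = 0.520; DESeq2, adjusted p = 0.0996), so it did not pass either test. Without T cell replicate 4, the highest library, the log2 fold change was 0.53. With all libraries it was 0.50 with total counts and 0.33 with abundant miRNAs. Of the 9 miRNAs of this list, 7 passed the filter on low counts, with 3 positive and 4 negative values and a median of −0.09. Under total counts 1 of the 7 was positive, as were 332 of all 1720 tested features. miR-216b-5p and miR-216b-3p, next to miR-216a, did not pass the filter.

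Other miRNAs of epithelium and pancreas were listed beside them. Of 5 further epithelial miRNAs, 1 had a positive and 4 a negative log2 fold change, with a median of −0.39 (−0.74 with total counts and −0.89 with abundant miRNAs). edgeR with TMM scaling called 0 of them, with 0 at an unadjusted p under 0.05, and DESeq2 0 of the 2 to which it gave an adjusted p. The shares over all features were 0%, 6.98% and 7.84%, so so few miRNAs could show little. miR-203-3p, which promotes differentiation of skin keratinocytes, averaged 946 ± 348 CPM in T cell libraries and 1265 ± 603 CPM in medium libraries (SD, n = 6 in either group). miR-205-5p, of stratified epithelium, averaged 413 ± 196 CPM and 537 ± 137 CPM. For miR-203-3p the log2 fold change was −0.43 with TMM, −0.81 with total counts and −0.94 with abundant miRNAs. The unadjusted p of miR-203-3p was 0.195, 0.0165 and 0.00732 in the same order (edgeR, adjusted p = 0.990, 0.470 and 0.226).

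Of 3 further pancreatic miRNAs, 3 had a positive value with TMM and 1 with total counts, beside 778 and 332 of all 1720 tested features. miR-148a-3p, which is abundant in pancreas and liver alike, was at 658, 1342 and 2372 CPM with T cells and at 508, 775 and 1077 CPM with medium. Its log2 fold change was 0.90 (standard error 0.32, edgeR, unadjusted p = 0.0111, adjusted p = 0.370; DESeq2, adjusted p = 0.0540). It was 0.49 with total counts and 0.35 with abundant miRNAs. miR-122-5p, the defining miRNA of hepatocytes, averaged 1944 ± 447 CPM in T cell libraries and 1142 ± 477 CPM in medium libraries (edgeR, adjusted p = 0.435). Its log2 fold change was 0.77 with TMM, 0.36 with total counts and 0.19 with abundant miRNAs, and the part of liver in the values of miR-148a-3p was not tested. For miR-7a-5p, of islets and brain, the fold change on the log2 scale was 0.34 (standard error 0.32).

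Across libraries the 9 miRNAs had no common pattern. Over their 36 pairs, Pearson's r of log2 CPM across the 12 libraries had a median of −0.01 and ranged from −0.49 to 0.63, with 18 pairs positive. For miRNAs from the same cluster r was 0.46 for miR-200a-3p and miR-200b-3p, −0.20 for miR-200b-3p and miR-429-3p, −0.31 for miR-200a-3p and miR-429-3p, 0.25 for miR-200c-3p and miR-141-3p, and −0.17 for miR-216a-5p and miR-217-5p. Spearman's rho for these pairs was 0.27, −0.14, −0.48, 0.29 and −0.09 in the same order. The highest r, 0.63, was that of miR-200b-3p and miR-215-5p, with a rho of 0.40. These values are descriptions, since the points share libraries and depth.

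The counts set a limit to such patterns. The coefficient of variation over 12 libraries ranged from 24.0% (miR-375-3p) to 64.9% (miR-200a-3p), while counting error alone gives 10.9% for miR-217-5p, at a mean of 84.3 counts, and 22.2% for miR-141-3p, at 20.3 counts. The median coefficient of variation of the 9 was 48.9% with T cells and 27.9% with medium, beside 44.3% and 36.7% over all tested features.

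The features whose level ran most like that of miR-217-5p, the most abundant of the 9, were miR-7116-5p (Pearson's r = 0.81, Spearman's rho = 0.86), miR-718 (0.79 and 0.82) and miR-339-5p (0.78 and 0.80), over 12 libraries. They were picked as the closest of all 1720 tested features, so values of this size can come from the choice alone. They are given with no test.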

How the data were processed

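Small RNA libraries of serum bEVs from 6 Rag1-/- mice given WT T cells and 6 given medium were analysed. Per the labels, bases were called with bcl2fastq 2.18.0.12. The authors uploaded the reads to Qiagen's GeneGlobe service, where adapters were removed, UMIs read and sequences matched to miRBase and to mm10. Counts were deposited unnormalized, as whole numbers per feature, and the table does not say whether they are reads or UMIs. No batch is given in the labels.

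Features were filtered by filterByExpr (1720 of 1995 kept), scaled by TMM and compared in R 4.3.3 with edgeR 4.0.16 (quasi-likelihood test). p-values were adjusted over all tested features by the Benjamini-Hochberg method. The common dispersion was 0.223. DESeq2 1.42.0 and limma voom (limma 3.58.1, sample weights) were alternatives, with other scalings (RLE, total counts, median ratio of abundant miRNAs), other filters, the replicate number as a block, and libraries left out. CPM of features use the TMM factors. log2 CPM used a prior count of 2, and arm differences 0.5 added counts. Confidence intervals of fold changes come from the edgeR fit and include the spread between mice, while the limit for a count of 0 covers counting error only.

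The 9 miRNAs and all lists were chosen with earlier results of these data known. Apart from the other arms, which are given by summed counts, values were given for at most 2 miRNAs of each list by mean level, and for likeness the 3 features that correlated best with the most abundant of the 9. miR-223-3p was named after its values were seen. Sequences and coordinates are from RefSeq (GRCm38.p6) and gene overlaps from GENCODE on GRCm38, the build of mm10. Python 3.11.15 and pandas 2.3.3 were used.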

Additional observations from a re-analysis of the deposited data

Results flagged for a closer look

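In the T cell group, miR-141-3p reached 573 CPM in replicate 1, and its gap to the next library was 0.676 of the group's range, above Dixon's 95% critical value for 6 samples. miR-215-5p reached 522 CPM in T cell replicate 5, with a gap of 0.63 of the range. These are 2 of 18 groups examined. Chance marks about 1 in 20 groups if values are normally distributed. That was not checked for these CPM, which rest on low counts, so the rate by chance is not known here.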

How the results depend on the processing

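For the 9 miRNAs 183 alternative values were computed, of which 161 kept the direction and 22 reversed it, the latter in 5 miRNAs. The lowest adjusted p was 0.261, and DESeq2 gave no adjusted p to 5 of the 9. With total counts the log2 fold change was −0.030 for miR-200a-3p, −0.16 for miR-200b-3p, −0.24 for miR-200c-3p and −0.13 for miR-215-5p, and with libraries scaled to abundant miRNAs −0.19, −0.33, −0.39 and −0.33. These settings lowered the median of all features as well. limma voom gave −0.12 for miR-200a-3p and −0.14 for miR-200c-3p. Without both T cell replicate 2 and medium replicate 3, miR-200c-3p had −0.17. The cause of the reversals between tools was not tested.

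With 1 library left out, the log2 fold change ranged from −0.081 to 0.58 for miR-200a-3p, −0.0080 to 0.28 for miR-200b-3p, −0.12 to 0.29 for miR-200c-3p, −0.071 to 0.35 for miR-215-5p and −0.19 to 0.30 for miR-217-5p. The labels do not say whether the same replicate numbers pair mice between the groups. The correlation of same-numbered libraries ranged from −0.14 to 0.09 over 6 numbers. 1 of 6 T cell libraries correlated best with its own number. Such values at low counts cannot decide whether the mice were matched. With the replicate number as a block, miR-217-5p had 0.019, and edgeR called 0 features, with 109 at an unadjusted p under 0.05. The total of called features was 0 in edgeR under each scaling, filter and left-out library, 0 in limma voom and 44 in DESeq2, and the cause of that difference was not tested. With at least 50 counts in 6 libraries, 3 of the 9 miRNAs could be fitted. Mean counts of 20.3 to 84.3 per library limit what can be seen for these miRNAs.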
